A study of Mus musculus with 3 samples.

Results

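The 9 genes described here encode parts of the machinery by which a pancreatic beta cell senses glucose and couples it to insulin release: Slc2a2, G6pc2, Kcnj11, Abcc8, Trpm5, Slc30a8, Ucn3, Glp1r and Ffar1. They were chosen by name, and all 9 of the 9 listed symbols were found among the 19938 genes that had a probe set of their own on the array. Each had 1 such probe set, so no choice between probe sets was needed for them. The study measured 3 arrays of RNA from sorted mouse pancreatic cells, 1 array per group, all on a C57BL/6 background and from mice older than 6 weeks. The beta cell array came from 3 pooled mice that were Fbw7 +/+, carried MIP-GFP, a green reporter driven by an insulin promoter, and received no treatment. The Fbw7-deleted ductal array came from 6 pooled mice that were Fbw7 F/F, and the wild-type ductal array from 6 pooled mice that were Fbw7 +/+. Both ductal groups carried Ck19-CreERT, a tamoxifen-activated Cre under a cytokeratin promoter, and the Cre-dependent yellow reporter R26-LSL-YFP; they were injected with tamoxifen on 5 days and sampled 7 days after the last injection. Per array, 30000 cells were sorted and 18 ng of RNA was amplified. Beta and ductal cells therefore also differ in transgenes and tamoxifen, and cell type cannot be told apart from these.

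In a beta cell, glucose enters through a transporter and is phosphorylated and metabolised, and the resulting rise in ATP closes ATP-sensitive potassium channels. The membrane depolarises, calcium enters and insulin granules, which hold insulin with zinc, are released. Gut hormones and fatty acids add to this response through receptors on the beta cell surface, and the somatostatin of neighbouring delta cells restrains it.

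In these data Abcc8, the sulfonylurea receptor of the potassium channel, and Slc30a8, the zinc transporter of insulin granules, stood far above both ductal arrays in beta cells. Ucn3, a peptide hormone that beta cells release with insulin, was also higher there. Slc2a2, the glucose transporter GLUT2, had another order, with its highest level in Fbw7-deleted ductal cells. Glp1r and Ffar1, the receptors for the incretin GLP-1 and for fatty acids, read low in all 3 arrays, as did G6pc2 and Trpm5. Kcnj11, which encodes the pore of the potassium channel, was less than 2-fold higher in beta cells.

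Levels are log2 intensities of the array as deposited, so that a difference of 1 is 2-fold. A level was read against the floor of its array, the median over single-gene probe sets, which was 5.30 in beta cells, 5.24 in Fbw7-deleted ductal cells and 5.23 in wild-type ductal cells. A gene entered a comparison when the higher of its 2 levels lay above the floor of that array. Where only 1 level lay above the floor, the fold was taken with the other set to the floor and reads "at least". Counts of genes past 2-fold used the deposited levels, except where sub-floor levels are said to be set to the floor. With 1 array per group there is no replicate, so no difference has an error or a p-value, and the number of arrays limits the precision.

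Several facts of the arrays touch every value below. Of the 7 measured beta cell markers outside the 9 genes, 5 lay above the floor in the beta cell array; the insulin gene Ins2 read 11.04 there, 5.87 in Fbw7-deleted and 5.31 in wild-type ductal cells, while Pdx1 (5.14) and Pcsk1 (4.73) lay below the floor even in beta cells. Of the same 7, 2 were above the floor in each ductal array, and Mafa, one of the 5, held 5.49 on all 3 arrays. The SD over all probe sets was 1.57 in beta cells, 1.97 in Fbw7-deleted and 2.02 in wild-type ductal cells, and genes of low mean level tended to read higher in the beta cell array. Among 4662 genes with a mean level between 4 and 5, the median difference of beta cells minus wild-type ductal cells was 0.24 and 9.42% were at least 2-fold higher. Among 4071 genes between 6 and 7 the median was -0.37 and 2.78% were at least 2-fold higher. Exactly equal values were common: 59.1% of genes held 1 value on both ductal arrays.

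**Figure D1:**
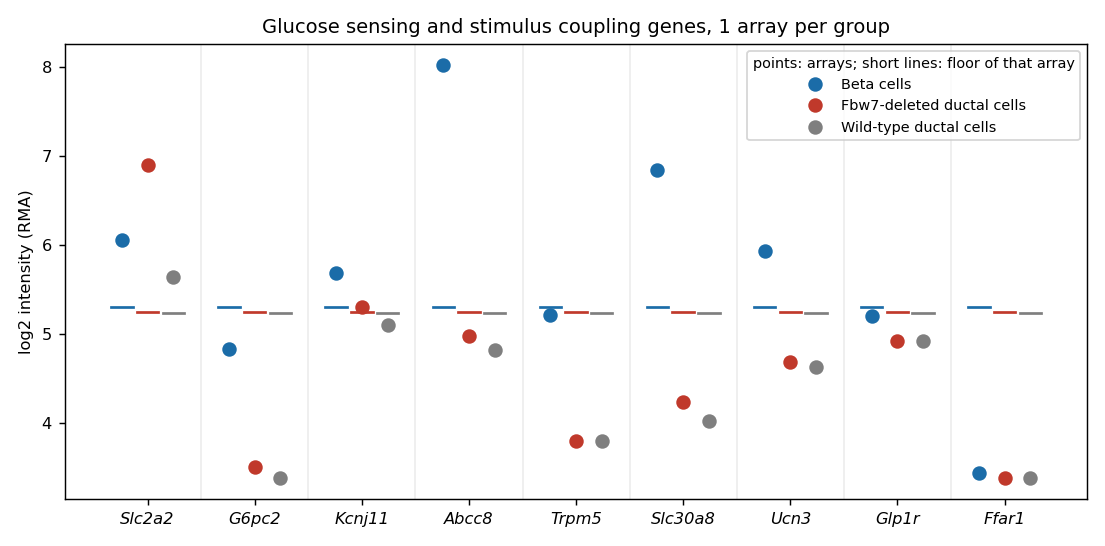
Log2 intensity (vertical axis) of the 9 genes (horizontal axis) in beta cells, Fbw7-deleted ductal cells and wild-type ductal cells, 1 point per array, with the floor of each array as a short line. Abcc8 reads 8.03 in beta cells, against 4.97 and 4.82 in the ductal arrays, while Slc2a2 is highest in Fbw7-deleted ductal cells at 6.90.

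Slc2a2, measured by probe set 10491171, lies on chromosome 3 (28697903 to 28728361 in GRCm38.p6). GLUT2 is the low-affinity glucose transporter of rodent beta cells and is also expressed in liver, kidney and gut. Slc2a2 read 6.05 in beta cells, 6.90 in Fbw7-deleted ductal cells and 5.64 in wild-type ductal cells, above the floor in each. Wild-type ductal cells were lowest and Fbw7-deleted ductal cells highest, with beta cells between them. The difference of beta cells minus wild-type ductal cells was 0.42, or 1.33-fold, and that of beta cells minus Fbw7-deleted ductal cells was -0.85, or 1.80-fold lower in beta cells.

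The promoters of Slc2a2, highest in Fbw7-deleted ductal cells, and of Ucn3, highest in beta cells, are shown because their levels followed different orders. The sequences are the 250 bases before the gene start in RefSeq (GRCm38.p6), chr3:28697653-28697902 on the plus strand for Slc2a2 and chr13:3945350-3945599 on the minus strand for Ucn3. They are read 5′ to 3′ along the gene, with capitals for matches to 6 motifs searched on both strands.
Slc2a2: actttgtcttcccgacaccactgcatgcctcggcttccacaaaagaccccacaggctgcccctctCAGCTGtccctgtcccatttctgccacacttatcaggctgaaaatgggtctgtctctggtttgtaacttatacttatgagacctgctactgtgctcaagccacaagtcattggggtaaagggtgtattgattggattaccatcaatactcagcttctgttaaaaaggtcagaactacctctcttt
Ucn3: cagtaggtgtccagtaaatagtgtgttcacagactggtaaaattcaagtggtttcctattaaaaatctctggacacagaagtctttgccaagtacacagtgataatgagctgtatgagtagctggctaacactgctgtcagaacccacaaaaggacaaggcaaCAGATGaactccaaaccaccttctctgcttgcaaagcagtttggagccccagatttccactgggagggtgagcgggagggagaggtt
The motifs were TAATTA (a homeobox core), TGTTTAC (a forkhead core), GTTAAT (part of an HNF1 site), CAGCTG (an E-box), CATCTG (a second E-box) and TGCTGA (part of a Maf site). Sequences were found for 6 of the 9 genes, all but Kcnj11, Abcc8 and Slc30a8. CAGCTG was found in Slc2a2, 185 bases before the gene start, and in Ffar1, where 12.7% of 27025 promoters hold it. CATCTG was found, on the opposite strand, in Ucn3, 87 bases before the gene start, and in Ffar1 (14.5% of promoters), and TGCTGA in Ffar1 (15.8%). The homeobox, forkhead and HNF1 letters were found in 0 of the 6, where 4.91%, 3.06% and 6.54% of promoters hold them. No 2 matches overlapped, and a match describes the letters only.

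G6pc2 encodes an islet glucose-6-phosphatase that turns glucose-6-phosphate back into glucose and so opposes the glucokinase step. It is measured by probe set 10472531 and lies on chromosome 2 (69211073 to 69227993). G6pc2 read 4.83 in beta cells, 3.50 in Fbw7-deleted ductal cells and 3.38 in wild-type ductal cells. As deposited, the beta cell value was higher by 1.33 than in Fbw7-deleted and by 1.45 than in wild-type ductal cells. All 3 levels lay below their floors, so their order is not read and the gene was not counted as higher in beta cells.

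Kcnj11 and Abcc8 encode the pore and the regulatory subunit, Kir6.2 and SUR1, of the ATP-sensitive potassium channel. They are neighbours on chromosome 7: Kcnj11 spans 46097123 to 46100952 and Abcc8 46104523 to 46180039, and 3570 bases lie between them. Kcnj11 (probe set 10563480) read 5.68 in beta cells, 5.30 in Fbw7-deleted ductal cells and 5.10 in wild-type ductal cells. Only the wild-type ductal level was below its floor, and the beta cell level was higher by 0.38 than in Fbw7-deleted and by 0.58, at least 1.36-fold, than in wild-type ductal cells. Abcc8 (probe set 10563487) read 8.03 in beta cells, 4.97 in Fbw7-deleted ductal cells and 4.82 in wild-type ductal cells. Both ductal levels were below the floor, so that Abcc8 was at least 6.91-fold higher in beta cells than in Fbw7-deleted and at least 6.94-fold higher than in wild-type ductal cells. The differences of the deposited values, 3.06 and 3.21, rest on ductal levels below the floor, so only the bounds are read.

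Trpm5 encodes a cation channel opened by calcium and is known from taste cells, tuft cells and beta cells. It is measured by probe set 10569399 and lies on chromosome 7 (143071529 to 143094642). Trpm5 read 5.22 in beta cells and 3.79 in both ductal arrays. The beta cell level was higher by 1.43 but lay 0.09 below its floor (-0.09), so Trpm5 was not counted as higher either. The ductal value was shared with many other probe sets: 249 probe sets in Fbw7-deleted and 217 in wild-type ductal cells held exactly this value. Of 8 markers of tuft cells, a chemosensory cell type of ducts that also expresses Trpm5, 4 lay above the floor in beta cells and 2 in each ductal array, and 0 were at least 2-fold apart in any of the 3 comparisons. Their mean level was 4.95 in beta cells, 4.49 in Fbw7-deleted and 4.56 in wild-type ductal cells. Their part in the Trpm5 level was not tested.

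Slc30a8 encodes ZnT8, which loads zinc into insulin granules. It is measured by probe set 10424086 and lies on chromosome 15 (52295553 to 52335798). Slc30a8 read 6.84 in beta cells, 4.23 in Fbw7-deleted ductal cells and 4.02 in wild-type ductal cells. Only the beta cell level lay above its floor, and Slc30a8 was at least 3.03-fold higher in beta cells than in Fbw7-deleted and at least 3.04-fold higher than in wild-type ductal cells. The deposited values differed by 2.61 and 2.82, and here too only the bounds are read. The wild-type ductal value was shared by 137 probe sets of that array.

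Ucn3 encodes urocortin 3, which in mouse islets is a marker of mature beta cells and acts on delta cells through the receptor Crhr2. It is measured by probe set 10407431 and lies on chromosome 13 (3940688 to 3945349). Ucn3 read 5.93 in beta cells, 4.68 in Fbw7-deleted ductal cells and 4.62 in wild-type ductal cells. The beta cell level was the only 1 above its floor and was higher by 1.25 than in Fbw7-deleted and by 1.30 than in wild-type ductal cells. Against the floor these differences were at least 1.61-fold and at least 1.62-fold, short of 2-fold. The wild-type ductal value was shared by 194 probe sets of that array.

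Glp1r encodes the receptor for GLP-1, a gut hormone that raises cyclic AMP in beta cells. It is measured by probe set 10443690 and lies on chromosome 17 (30901867 to 30936510). Glp1r read 5.20 in beta cells and 4.92 in both ductal arrays, all below their floors, with a difference of 0.29. Ffar1 encodes a receptor for long-chain fatty acids, also called GPR40. It is measured by probe set 10562130 and lies on chromosome 7 (30860568 to 30861470). Ffar1 read 3.43 in beta cells and 3.37 in both ductal arrays, with a difference of 0.06, and 53 probe sets in Fbw7-deleted and 81 in wild-type ductal cells held exactly the ductal value. Neither receptor was measured above the floor on any array, which gives only an upper limit to its level.

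Counted together, 5 of the 9 genes passed the floor for beta against wild-type ductal cells, and 3 of the 9 were at least 2-fold higher in beta cells: Abcc8, Slc30a8 and Ucn3. Among the 11139 genes so compared, 6.37% passed 2-fold upward in beta cells and 25.8% downward, and 0 of the 9 genes did the second. With sub-floor levels set to the floor Ucn3 no longer passed 2-fold, which left 2 genes, where 2.94% of the 11139 passed it upward. Of the genes called over the whole array 19.8% were higher, against 37.3% after quantile normalization, 35.0% with the loess trend removed, 33.9% without a floor and 11.5% with each array centred. Without the floor, 5 of the 9 were at least 2-fold higher, with G6pc2 and Trpm5 added, where 7.41% of all 19938 genes were. All 9 differences were positive, where 45.1% of all genes were positive, 31.8% negative and the rest equal. Among the 9, 4 lay below the floor in both arrays, so their order is not read. Genes of low level tended to read higher in the beta cell array. The median over the 9 genes was 1.30 and that over all genes 0; with sub-floor levels set to the floor, the median over the 9 was 0.42, the value of Slc2a2.

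Against Fbw7-deleted ductal cells, Abcc8, Slc30a8 and Ucn3 were again the 3 genes at least 2-fold higher in beta cells, where 5.13% of 11095 genes were and 23% were lower. With sub-floor levels set to the floor Ucn3 was lost here as well, which left 2 genes, where 2.33% of the 11095 were higher. Without the floor G6pc2 and Trpm5 joined them, making 5, where 6.05% of all genes were higher. Of the genes called, 18.2% were higher in beta cells, against 35.8% after quantile normalization, 31.2% with the loess trend removed, 32.0% without a floor and 9.97% with each array centred. The beta cell array is shared by both comparisons, so the counts are not independent. Of the 9 differences 8 were positive and 1, that of Slc2a2, was negative, where 44.4% of all genes were positive and 30.6% negative. Here too 4 of the 9 lay below the floor in both arrays, so their order is not read. The median over the 9 was 1.25, and 0 with sub-floor levels set to the floor.

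**Figure D2:**
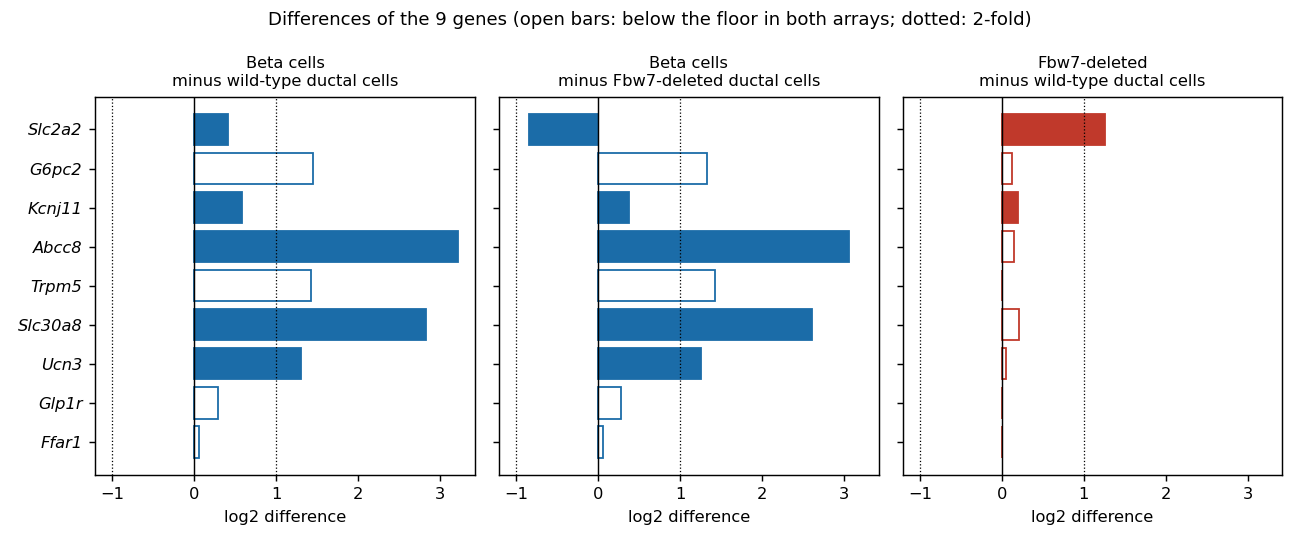
Log2 differences (horizontal axes) of the 9 genes (vertical axis) for beta cells minus wild-type ductal cells, beta cells minus Fbw7-deleted ductal cells and Fbw7-deleted minus wild-type ductal cells, 1 bar per gene; open bars are genes below the floor in both arrays and dotted lines mark 2-fold. Abcc8 (3.21 and 3.06) and Slc30a8 (2.82 and 2.61) have the longest bars in both beta cell panels, with ductal levels below the floor, and Slc2a2 (1.26) is the only bar past 2-fold between the ductal arrays.

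The differences of single genes were also set beside the trend of the whole array. With the loess trend of the difference on mean level removed, or after quantile normalization, Abcc8 and Slc30a8 stayed at least 2-fold higher in beta cells than in either ductal array. Of the alternatives, 4 could move these values, the 3 scalings and the floor as a minimum level; against wild-type ductal cells they gave 2.79 to 3.89 for Abcc8 and 1.61 to 3.24 for Slc30a8. G6pc2 and Trpm5 lay in the range of mean level (4 to 5) in which 9.42% of genes were at least 2-fold higher in beta cells than in wild-type ductal cells. Ffar1 changed sign against wild-type ductal cells with scaling and read -0.43 after quantile normalization.

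**Figure D3:**
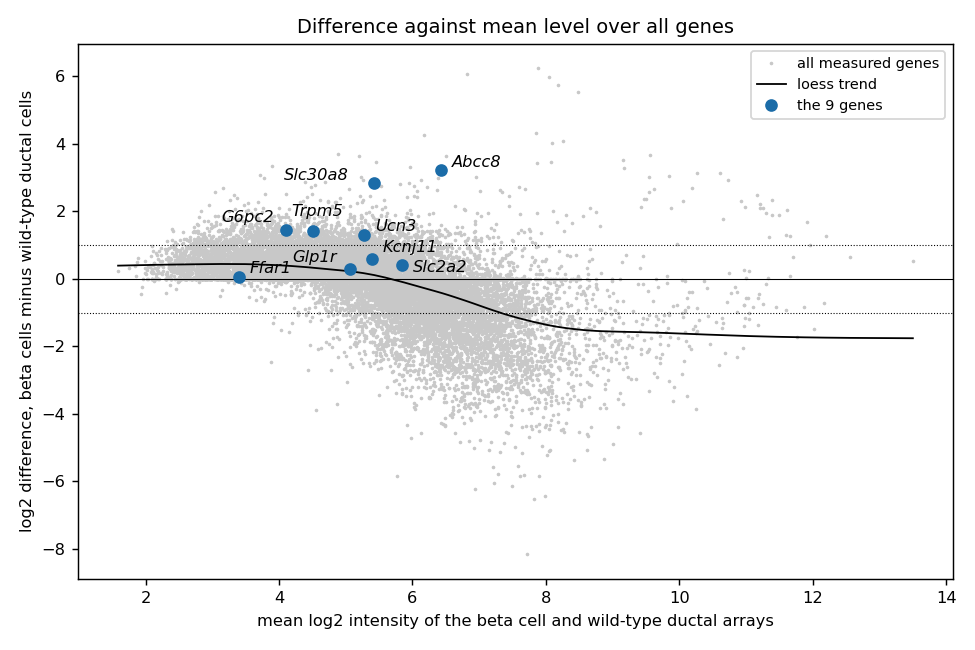
Difference of beta cells minus wild-type ductal cells (vertical axis, log2) against the mean log2 intensity of both arrays (horizontal axis) for all 19938 genes in grey, with the loess trend as a line and the 9 genes as large points. The trend lies above 0 at low levels and below 0 at high levels, Abcc8 (3.21) and Slc30a8 (2.82) lie far above it, and Ffar1 (0.06) lies below it.

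Markers of other cell types also differed between the beta cell and ductal arrays, in both directions. The alpha cell hormone gene Gcg read 11.00 in beta cells, 5.75 in Fbw7-deleted and 4.77 in wild-type ductal cells, and the delta cell hormone gene Sst 11.04, 5.40 and 5.06 in the same order. In the beta cell array both thus read about as high as Ins2 (11.04). Of the alpha cell markers, 4 of 5 measured were above the floor in beta cells and 2 of 5 in each ductal array, with a mean level of 7.31 in beta cells, 6.08 in Fbw7-deleted and 5.84 in wild-type ductal cells. Not all went one way: Slc7a2, an amino acid transporter of alpha cells, read 5.71 in beta cells, 5.14 in Fbw7-deleted and 7.01 in wild-type ductal cells. Of the delta cell markers, 4 of 5 were above the floor in beta cells, 4 in Fbw7-deleted and 1 in wild-type ductal cells, with mean levels of 6.69, 5.66 and 5.18. Hhex, a homeobox gene of delta cells, was highest in Fbw7-deleted ductal cells, at 6.05 in beta cells, 7.24 in Fbw7-deleted and 5.20 in wild-type ductal cells, and Rbp4 did not differ between beta and wild-type ductal cells (5.96 in each). Both PP cell markers were at least 2-fold higher in beta cells than in either ductal array, with Pyy at 10.01 in beta cells, 6.00 in Fbw7-deleted and 5.68 in wild-type ductal cells. Alpha cells are known to express Kcnj11, Abcc8 and Slc30a8 too, and the part of other islet cells in these levels was not tested. Of 6 leukocyte markers, 4 were above the floor in beta cells and 0 in either ductal array, with a mean level of 5.60 in beta cells, 3.76 in Fbw7-deleted and 3.68 in wild-type ductal cells. Endothelial markers were above the floor in 5 of 5 cases in beta cells and in 2 of 5 in each ductal array, with mean levels of 6.38, 5.07 and 4.91. Acinar markers, 8 in all, had mean levels of 9.63 in beta cells, 9.34 in Fbw7-deleted and 8.46 in wild-type ductal cells, and 4 were at least 2-fold higher in beta cells than in wild-type ductal cells. In beta cells 6 of the 8 lay above the floor. Their levels there ranged from 4.39 to 12.88, so the highest exceeded Ins2. In the other direction, 5 of 10 duct markers (median -1.13) and 4 of 5 mesenchymal markers (median -2.44) were at least 2-fold lower in beta cells than in wild-type ductal cells. Above the floor in that comparison were 8 of the duct markers and all 5 mesenchymal markers. Of all genes so compared, 6.37% were at least 2-fold higher in beta cells and 25.8% lower. By mean level and without the floor, 55.9% were lower at 7 to 8 and 65.9% at 8 to 9. Above 9, 17.8% were higher and 52.8% lower. The part of leukocytes and of endothelial, acinar, duct and mesenchymal cells was not tested either. In pooled sorted cells, fewer cells of a type and less RNA per cell cannot be told apart.

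Fbw7 is the substrate-recognition part of a ubiquitin ligase, and the 2 ductal arrays differ in its deletion. Of the 9 genes, 1 was at least 2-fold higher in Fbw7-deleted cells, Slc2a2, and 0 were lower, where 1.43% of 10035 genes were higher by that much and 1.81% lower. Of the genes called, 44.2% were higher in Fbw7-deleted cells, against 60.3% after quantile normalization. The level of Slc2a2 was 6.90 in Fbw7-deleted and 5.64 in wild-type ductal cells, a difference of 1.26, or 2.40-fold, which ranked 108 of 19938 genes from the most positive. Both levels lie above the floor and the gene has 1 probe set, so only the 3 scalings could move this value, and they gave 1.13 to 1.26. The other 8 genes differed by 0.21 or less, and only Slc2a2 and Kcnj11 were above the floor in this comparison. Slc30a8 read 4.23 in Fbw7-deleted and 4.02 in wild-type ductal cells, Kcnj11 5.30 and 5.10, and Abcc8 4.97 and 4.82. Glp1r, Ffar1 and Trpm5 did not differ at all between the ductal arrays, as 59.1% of all genes did not, and the other 6 differences were positive, as 20% of all differences were. The median over the 9 genes was 0.12, and 0 with sub-floor levels set to the floor.

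Other genes differed between the ductal arrays in the same direction as Slc2a2. Over all genes 20% were higher in Fbw7-deleted cells, and of the genes compared 1.43% were at least 2-fold higher and 1.81% lower. At a mean level above 9, 5.47% were higher and 3.32% lower by that much. Of 10 duct markers, 10 were higher in Fbw7-deleted cells and 4 of them at least 2-fold, Krt18, Epcam, Onecut1 and Prom1, with a mean level of 8.19 in Fbw7-deleted and 7.18 in wild-type ductal cells. Of 8 acinar markers, 4 were at least 2-fold higher and 0 lower, with mean levels of 9.34 and 8.46. Of 5 liver-like markers, 1 was at least 2-fold higher, Ttr, which alpha cells also express, with mean levels of 6.19 and 5.56. Of 7 beta cell markers, 0 were at least 2-fold apart, and their mean level was 4.91 in Fbw7-deleted and 4.66 in wild-type ductal cells. Of 5 mesenchymal markers, 4 were at least 2-fold lower, with mean levels of 8.45 and 9.58. With sub-floor levels set to the floor 3 of them were, where 1.63% of the genes compared were. Between the ductal arrays 9 of 10 duct, 6 of 8 acinar and 4 of 5 liver-like markers were above the floor. So were 2 of 7 beta cell and 5 of 5 mesenchymal markers. The part of these markers in the Slc2a2 difference was not tested. Among 12 measured genes of the hexose transporter family, Slc2a2 was the 1 at least 2-fold apart between the ductal arrays; Slc2a1, which encodes the widespread transporter GLUT1, read 7.81 in Fbw7-deleted and 8.03 in wild-type ductal cells.

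The genes whose pattern over the 3 arrays was most like a given one were sought for the 5 of the 9 that lay above the floor on at least 1 array (not for G6pc2, Trpm5, Glp1r and Ffar1), by the Euclidean distance between mean-centred levels, among 10686 genes, predicted genes and some large families left out, above the floor likewise. Slc2a2 was nearest to ccdc198 (distance 0.03), a coiled-coil protein gene, and to Kdf1 (0.07), a gene of keratinocyte differentiation, and only 7 genes lay within 0.2 of it. Kdf1 read 5.55 in beta cells, 6.39 in Fbw7-deleted and 5.05 in wild-type ductal cells. Abcc8 was nearest to Cd52 (0.13) and Lilrb4a (0.21), both genes of leukocytes, and 1 gene lay within 0.2. Cd52 read 7.62 in beta cells, 4.37 in Fbw7-deleted and 4.30 in wild-type ductal cells. Slc30a8 was nearest to Il10ra (0.07), an interleukin receptor gene of leukocytes, and Gnao1 (0.13), a G protein gene of neurons and endocrine cells, with 9 genes within 0.2. Ucn3 was nearest to Jsrp1 and Egfl7 (0.02 each) among 245 genes within 0.2, and Kcnj11 to Luc7l (0.01) and Fbxo40 (0.02) among 756. For these last patterns, likeness over 3 arrays was common. The distances used deposited levels, also those below the floor, as both ductal levels of Abcc8, Slc30a8, Ucn3 and Cd52 were. Such likenesses rest in part on levels that are not read. Set to the floor, the difference of beta cells minus wild-type ductal cells was 2.79 for Abcc8 and 2.38 for Cd52.

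Other genes of the same pathway were described from 4 lists, with the numbers of all genes given above as background. Of 21 measured genes of glucose entry and metabolism, 11 were at least 2-fold lower in beta cells than in wild-type ductal cells and 0 higher. Only 15 of the 21 were above the floor and could be called. The median over all 21 was -1.02. Lower calls were common at high levels: over all genes, 29.2% were at least 2-fold lower at a mean level of 6 to 7, 55.9% at 7 to 8 and 65.9% at 8 to 9, against 8.75% at 5 to 6, and 25.8% of all genes above the floor. Against Fbw7-deleted ductal cells 7 were lower and 0 higher, of 14 above the floor, where 23% of all genes compared were lower. Slc16a1, the monocarboxylate transporter that mature beta cells normally keep low, read 4.49 in beta cells, 8.06 in Fbw7-deleted and 8.03 in wild-type ductal cells. Idh1, an isocitrate dehydrogenase, read 5.57, 7.99 and 8.31 in the same order. Gpd1, a glycerol-phosphate dehydrogenase, had the most positive difference among the genes above the floor, 0.18, and Pfkm, a phosphofructokinase, held 5.42 on all 3 arrays. Between the ductal arrays, 0 of the 21 were at least 2-fold apart. Glucokinase is not analysed here.

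Of 19 measured genes of excitability and calcium handling, 1 was at least 2-fold higher and 2 were lower in beta cells than in wild-type ductal cells, with a median of 0.32. Against Fbw7-deleted ductal cells 1 was higher and 3 were lower. In these comparisons 11 and 10 of the 19 were above the floor. Of all genes compared, 6.37% and 5.13% were higher and 25.8% and 23% lower. The higher gene in both was Atp2a3, a calcium pump of the endoplasmic reticulum, at 5.98 in beta cells, 4.53 in Fbw7-deleted and 4.26 in wild-type ductal cells. With the sub-floor ductal levels of Atp2a3 set to the floor it was at least 1.67-fold and at least 1.68-fold higher, and 0 genes of this list then passed 2-fold upward. Its relative Atp2a2 went the other way, at 7.11, 8.92 and 9.05 in the same order. The calcium channel subunit Cacna1d read 5.36 in beta cells, 4.62 in Fbw7-deleted and 4.45 in wild-type ductal cells, and Cacna2d1, whose lower call against wild-type ductal cells is at least 1.82-fold by the floor, 5.14, 5.13 and 6.17. Between the ductal arrays Kcnq1, a potassium channel, and Fxyd3, an ion transport regulator, were at least 2-fold higher in Fbw7-deleted cells and Cacna2d1 lower (at least 1.90-fold by the floor); the first pair is named after its values were seen. There 9 of the 19 were above the floor, and of all genes compared 1.43% were higher and 1.81% lower. Kcnq1 read 5.42 in beta cells, 7.20 in Fbw7-deleted and 5.25 in wild-type ductal cells. It lies next to Trpm5 on chromosome 7, with 12234 bases between them, and Trpm5 was equal in both ductal arrays.

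Of 20 measured receptor and cyclic AMP genes, 0 were at least 2-fold higher and 2 were lower in beta cells than in wild-type ductal cells, with a median of 0.35, and the counts were the same against Fbw7-deleted ductal cells. In each comparison 7 of the 20 were above the floor. Of all genes compared, 6.37% and 5.13% were higher and 25.8% and 23% lower. Gcgr, the glucagon receptor, had the most positive difference at 0.99 and read 6.33 in beta cells and 5.34 in both ductal arrays. Plcb1, a phospholipase C, was at 0.61. Prkar1a, a regulatory subunit of protein kinase A, was at -3.11 and Gpr39, a zinc-sensing receptor, at -2.56. Between the ductal arrays 15 of the 20 held equal values, where 59.1% of all genes did, and 0 were at least 2-fold apart. Of 12 measured zinc genes other than Slc30a8, 6 were at least 2-fold lower in beta cells than in wild-type ductal cells and 0 higher, with a median of -0.88, and 4 were lower and 0 higher than in Fbw7-deleted ductal cells. In these comparisons 10 and 9 of the 12 were above the floor. Mt2, a zinc-binding metallothionein, was at -3.33 and Slc30a7, a zinc transporter of the Golgi, at -1.99, while Slc30a6 was at -0.46 and Slc30a3 at 0.53. The difference was negative for 9 of the 12, where 31.8% of all genes were negative and lower calls are more common at high levels, as given above.

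**Figure D4:**
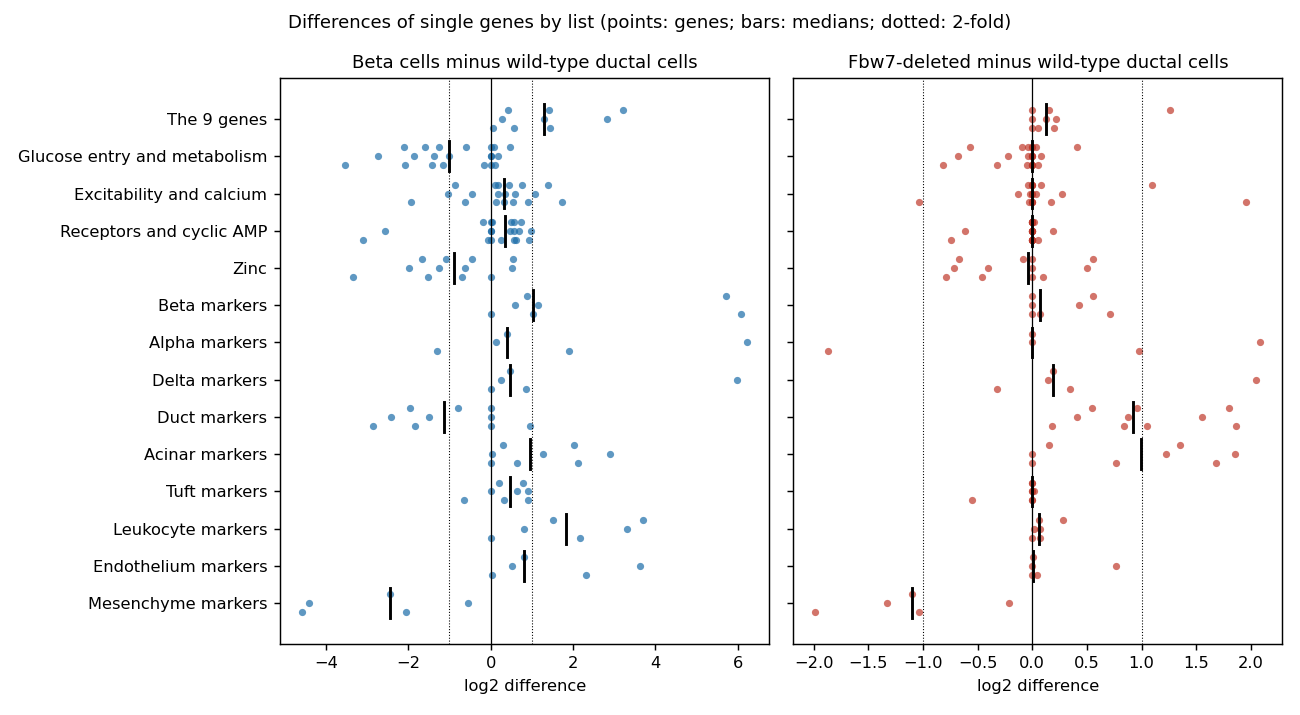
Log2 differences of single genes (horizontal axes, on different scales) by gene list, left for beta cells minus wild-type ductal cells, right for Fbw7-deleted minus wild-type ductal cells, with medians as bars and 2-fold as dotted lines. The 9 genes have a median of 1.30 in beta cells minus wild-type ductal cells and 0.12 between the ductal arrays, where duct and acinar markers lie mostly above 0 and mesenchymal markers below it.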

How the data were processed

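RNA of 3 sorted cell pools was measured, 1 array each. The deposited file holds log2 intensities per probe set, which the authors computed by RMA per the submitters' processing notes; the sources used here give neither its version nor whether all arrays entered it jointly. As deposited, the 3 arrays did not share 1 distribution. Their medians over all probe sets were 5.09 in beta cells, 4.91 in Fbw7-deleted and 4.88 in wild-type ductal cells, and their SDs differed as given above. Groups came from the sample titles. The platform annotation gave 1 gene for 21789 of 35556 probe sets, and 21698 of these matched RefSeq (GRCm38.p6). Each of the resulting 19938 genes has its probe set of highest mean. Log2 levels were subtracted for 3 array pairs, and changes of at least 2-fold counted above the floor, with no test. The 9 genes, the lists and the rules were chosen with earlier results of these data known. Named are the 9 genes, Ins2, per pathway list the 2 most positive and 2 most negative genes above the floor in beta cells minus wild-type ductal cells, family members at least 2-fold higher there, and the 2 genes nearest in pattern; other names were chosen after their values were seen. Alternatives changed the floor (absent, 75th percentile, or as a minimum level), the threshold (1.5-fold, 4-fold), the scaling (quantile, centring, loess with span 0.3) and the choice of probe set. The counting was tested on simulated data. Python 3.11.15 ran numpy 2.4.6 for arrays, pandas 2.3.3 for tables, statsmodels 0.14.6 for loess and matplotlib 3.10.9 for figures.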

Additional observations from a re-analysis of the deposited data

How the results depend on the processing

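No paired analysis was possible because each group is 1 array and the labels carry no replicate numbers. Counts of the 9 genes at least 2-fold higher in beta cells were 5 without a floor against both ductal arrays, in place of 3, and 2 with the floor at the 75th percentile, with the floor as a minimum level and at 4-fold. Of all genes compared with wild-type ductal cells, 7.41% were higher without a floor. With the other settings, in the order given, the shares were 6.21%, 2.94% and 0.916%. Against Fbw7-deleted ductal cells the shares in the same order were 6.05%, 5.05%, 2.33% and 0.568%. The count lower in beta cells than in Fbw7-deleted ductal cells was 1 at 1.5-fold and 1 with centring, in place of 0. That gene is Slc2a2. Of all genes compared, 33.5% were lower at 1.5-fold and 27.2% with each array centred. At 4-fold, 0 of the 9 genes were higher in Fbw7-deleted than in wild-type ductal cells, in place of 1. Of all genes compared, 0.409% were. The median of beta cells minus wild-type ductal cells, 1.30 as reported, was 2.82 with the floor at the 75th percentile, where only genes above it are counted, 0.42 with the floor as a minimum level, 1.11 after quantile scaling, 1.09 with centring and 1.06 with the loess trend removed. For beta cells minus Fbw7-deleted ductal cells, 1.25 as reported, the same settings gave 2.61, 0, 1.02, 1.07 and 0.98. Between the ductal arrays, 0.12 as reported, the first 2 of these settings gave 1.26 and 0. Centring moved the median of all genes by -0.21 against wild-type and -0.18 against Fbw7-deleted ductal cells. The cause of these movements was not tested. In all, 67 of 84 alternative values moved by less than 0.1 for a median, or by at most 1.5 times for a count. The drops from 3 to 2 genes given above are among these 67. So are values that could not move: counts and medians under other choices of probe set, and medians without a floor. Each of the 9 genes has 1 probe set, and the medians as reported use no floor. The tally therefore overstates how stable the results are. For single genes the choices of probe set, and of the floor other than as a minimum level, could move no value. Ffar1, which was below every floor, changed sign under 3 of 8 settings in each beta cell comparison.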

Other observations

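Relatives of the 9 genes were read across their families, 72 measured genes of hexose transporters, glucose-6-phosphatases, inward rectifier channels, ABC transporters of subfamily C, zinc exporters, TRPM channels, urocortins with their receptors, fatty acid receptors and receptors for incretins, glucagon and secretin, the 9 genes included. Of the 32 above the floor in beta cells against wild-type ductal cells, 5 were at least 2-fold higher in beta cells, Abcc8, Slc30a8 and Ucn3 with Slc2a7, a hexose transporter, and Kcnj14, an inward rectifier channel. With sub-floor levels set to the floor Kcnj14 (at least 1.77-fold) and Ucn3 (at least 1.62-fold) fell short of 2-fold, which left 3. Over all genes in this comparison 6.37% were called higher and 25.8% lower. With sub-floor levels set to the floor these shares were 2.94% and 24.3%. Slc2a7 read 6.44 in beta cells, 5.62 in Fbw7-deleted and 5.42 in wild-type ductal cells, and Kcnj14 6.06, 5.28 and 4.95 in the same order. A further 6 were at least 2-fold lower in beta cells: the transporter Slc2a1, the ubiquitous glucose-6-phosphatase G6pc3, the channel Trpm7 and the zinc exporters Slc30a1, Slc30a7 and Slc30a9. G6pc3 read 5.92 in beta cells, 8.19 in Fbw7-deleted and 7.78 in wild-type ductal cells; G6pc2 lay below every floor, so its order cannot be read. Between the ductal arrays Slc2a2 was the 1 of the 72 genes at least 2-fold higher, and 0 were at least 2-fold lower. Of all genes compared there, 1.43% were higher and 1.81% lower.

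The urocortin receptor Crhr2 read 5.63 in beta cells and 5.06 in both ductal arrays, a difference of 0.57. Of the other free fatty acid receptors, Ffar2, Ffar3 and Ffar4, none was above the floor in beta cells or wild-type ductal cells, and their differences ranged from -0.05 to 0.51. Ush1c, the neighbour of Abcc8 on the side away from Kcnj11, read 6.23 in beta cells, 4.88 in Fbw7-deleted and 4.80 in wild-type ductal cells, with 15310 bases between the genes.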
